A study of Rattus norvegicus with 24 samples.

Results

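Neuropeptide receptors are G protein-coupled receptors at the neuronal surface through which peptides released by neighbouring cells change excitability and transmitter release. The 9 receptor genes described here were taken by name from 32883 genes in the deposited tables: Npy1r and Npy5r (neuropeptide Y receptors), Sstr1, Sstr2 and Sstr3 (somatostatin receptors), Mc4r (the melanocortin 4 receptor), and Oprk1, Oprm1 and Oprl1 (the kappa opioid, mu opioid and nociceptin receptors). The levels of Npy1r and Sstr2 under JQ1 at 60 min led to their choice, so values from that experiment are given as a description, with no test.

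RNA was sequenced from primary striatal neurons of neonatal rats, treated on day 7 in culture, after removal of ribosomal RNA. The design crossed SKF, an agonist of the D1 dopamine receptor, with a bromodomain inhibitor. JQ1 binds the bromodomains of the BET proteins, which read acetylated histones, and iBD2 is a bromodomain inhibitor known here by its label alone. Experiment 1 compared SKF plus JQ1, JQ1 plus DMSO, SKF plus DMSO, and DMSO alone at 60 min. Experiment 2 compared SKF plus iBD2, iBD2 plus DMSO, SKF plus DMSO, and DMSO alone at 60 min. Experiment 3 held SKF plus JQ1, JQ1 plus DMSO, SKF plus DMSO, and DMSO alone at 24 h. Each group received a pair of additions, with DMSO in the place of an absent compound. Doses, and the animals behind each library, are not given in the sources used here, and the labels name no genetic change in any group. Of the 12 groups, 11 had 2 libraries and SKF plus iBD2 had 1 that was analysed here. Whether libraries of the same group stem from different cultures is not stated in the labels. The p-values therefore rest on a spread between libraries that may be technical.

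The neuropeptide Y, somatostatin, opioid and nociceptin receptors couple to inhibitory G proteins, which lower cyclic AMP and open potassium channels. The melanocortin 4 receptor and the D1 dopamine receptor couple instead to stimulatory G proteins and raise cyclic AMP. Cyclic AMP activates protein kinase A and, through it, the transcription factor CREB, which binds the cyclic AMP response element (CRE). In the striatum the mu opioid receptor is known for its concentration in the patches called striosomes, and somatostatin and neuropeptide Y come from a class of local interneurons.

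The libraries held 4.36 to 14.86 gigabases of aligned bases. Fos and Nr4a1, immediate early genes, were higher with SKF at 60 min in experiment 2 by 2.20 ± 0.17 and 2.25 ± 0.25 on the log2 scale (adjusted p = 2e-06 and 0.000112, limma). Hexim1, a gene known to rise under BET inhibition, was higher with JQ1 at 24 h by 1.48 ± 0.09 and with iBD2 at 60 min by 0.52 ± 0.09 (adjusted p = 9.76e-10 and 0.0245, limma). Myc was lower with JQ1 at 24 h by 0.37 ± 0.08 (adjusted p = 0.000877, limma). With iBD2 at 60 min the log2 difference of Myc was -0.30 ± 0.08 and did not pass the test (adjusted p = 0.323, limma). All 12 projection neuron markers and all 3 GABA neuron markers passed the filter. So did all 5 excitatory neuron, all 6 astrocyte and all 7 microglia markers. Of the interneuron markers 8 of 9 passed, and of the oligodendrocyte lineage markers 5 of 6. The excitatory neuron markers Slc17a7 and Tbr1 were at 3.75 to 13.5 FPKM and 4.89 to 7.44 FPKM. The endothelial markers Cldn5, Flt1 and Kdr were below 0.1 FPKM in every library. Acta2, from the same list, passed at 0.761 to 3.75 FPKM. Summed astrocyte marker FPKM was lower in experiment 2, at 105.8 to 115.6. Experiment 1 had 277.7 to 394.7 and experiment 3 had 273.9 to 426.8.

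Levels are FPKM, which correct the fragments of a gene for its length and for the depth of the library, so genes can be set side by side. In the 3 DMSO groups Oprm1 was highest, with means of 18.3 FPKM in experiment 1, 17.0 FPKM in experiment 2 and 19.3 FPKM in experiment 3. Npy1r followed at 11.1, 13.96 and 11.9 FPKM, and Oprl1 at 8.90, 8.61 and 10.5 FPKM. The rank of Oprm1 rested on 1 long transcript, with 87.2% of its FPKM, whose span contains another gene, Ipcef1. In the DMSO libraries the other Oprm1 transcripts summed to 1.075 to 2.623 FPKM, below Npy1r and Oprl1. Mc4r averaged 2.60, 1.29 and 2.64 FPKM and Sstr2 averaged 1.65, 1.62 and 1.45 FPKM, so that the order of these 2 genes was opposite in experiment 2. Sstr1 was lower, at 0.719, 0.971 and 0.726 FPKM, and Oprk1 lower still, at 0.518, 0.258 and 0.583 FPKM. Npy5r and Sstr3 were at the bottom, with means between 0.096 and 0.209 FPKM. In each DMSO group the libraries of neighbours in this order did not overlap, with 2 libraries for each gene.

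Npy5r and Sstr3 reached 0.5 FPKM in no library and did not pass the filter on low values. Npy5r rested on 0 to 51 estimated reads per library and was listed at 0 in 1 library, SKF replicate 2 of experiment 2. Sstr3 rested on 5 to 70 estimated reads. The other 7 genes passed, but Oprk1 did so through only 4 libraries, all of them from DMSO or SKF groups of experiments 1 and 3, so its place among the genes tested depended on the groups in which it was high. The plot of levels by library shows all 9 genes.

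**Figure D1:**
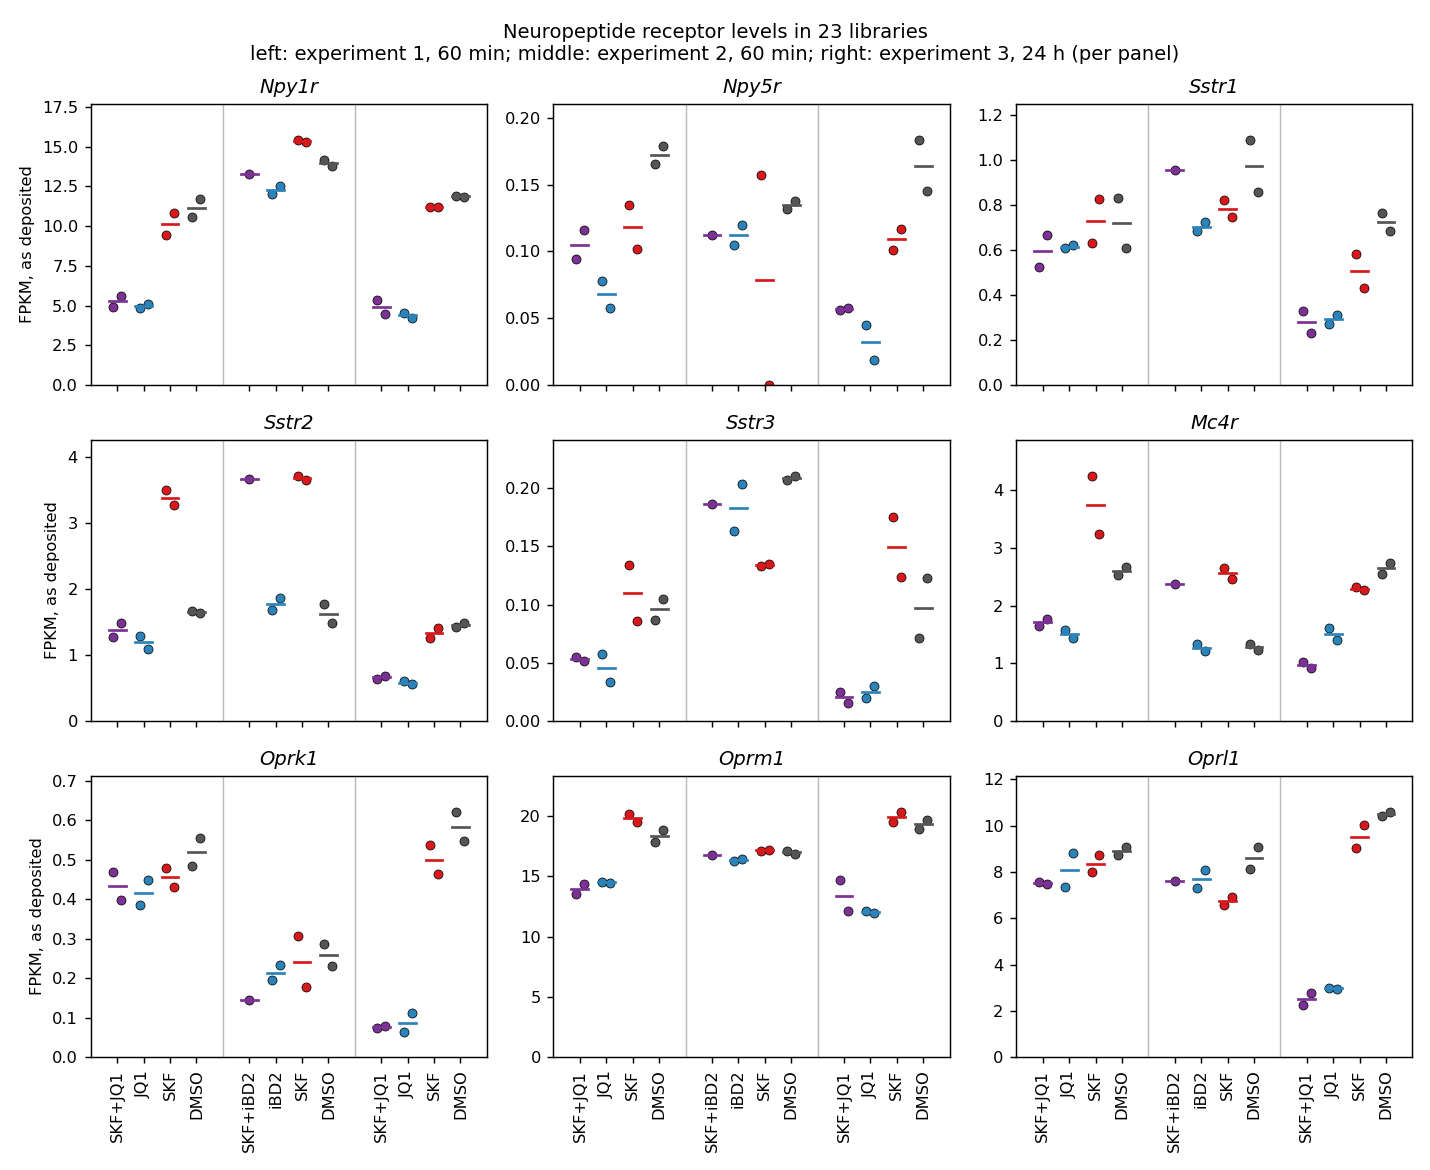
Deposited FPKM of the 9 receptor genes (y axis, one scale per gene, starting at 0) in 23 libraries, grouped on the x axis by experiment and treatment, with a point per library and a line at the group mean. Sstr2 and Mc4r stand high in the SKF groups at 60 min, and Npy1r stands at 4.23 to 5.59 FPKM in the groups that received JQ1.

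Npy1r encodes the Y1 receptor, one of the main neuropeptide Y receptors of the forebrain. The gene lies on the minus strand of chromosome 16 at 24779477 to 24788740 (build Rnor_6.0), 8383 bases from Npy5r, which runs the other way on the plus strand at 24797124 to 24805079. At 60 min of JQ1 in experiment 1, Npy1r measured 4.86 and 5.09 FPKM in JQ1 libraries, against 10.6 and 11.7 FPKM in DMSO libraries. With SKF present it measured 4.93 and 5.59 FPKM in SKF plus JQ1 libraries, against 9.47 and 10.8 FPKM in SKF libraries. In both pairs the JQ1 libraries were all below, at 44.6% of the DMSO mean and 51.9% of the SKF mean. These are log2 differences of -1.06 ± 0.09 and -0.88 ± 0.09 (SE).

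Experiment 3, which shares no library with experiment 1, gave the JQ1 effect at 24 h. Npy1r measured 4.55 and 4.23 FPKM in JQ1 libraries, against 11.9 and 11.8 FPKM in DMSO libraries. It measured 5.34 and 4.48 FPKM in SKF plus JQ1 libraries, against 11.2 and 11.2 FPKM in SKF libraries. No library with JQ1 overlapped its control, and Npy1r fell to 37.0% of the DMSO mean and 43.8% of the SKF mean. The log2 fold changes were -1.24 ± 0.09 and -1.05 ± 0.09 (SE, adjusted p = 7.04e-09 and 5.03e-08, limma, n = 2 libraries a group). Npy5r, far lower, was listed at 0.045 and 0.019 FPKM with JQ1 at 24 h, against 0.183 and 0.145 FPKM with DMSO. When no filter was applied, its log2 difference was -0.31 ± 0.09 with JQ1 over DMSO (adjusted p = 0.0241, limma), on 4 to 51 estimated reads per library. With SKF plus JQ1 over SKF it was -0.12 ± 0.09 and did not pass (adjusted p = 0.465, limma).

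With iBD2 in experiment 2, Npy1r measured 11.99 and 12.5 FPKM in iBD2 libraries, against 14.1 and 13.8 FPKM in DMSO libraries. The SKF plus iBD2 library measured 13.2 FPKM, against 15.4 and 15.3 FPKM in SKF libraries. The iBD2 libraries lay below their controls in both pairs, but neither difference passed the test. The log2 difference was -0.14 for iBD2 over DMSO (95% interval -0.33 to 0.05) and -0.21 for SKF plus iBD2 over SKF (95% interval -0.44 to 0.02), with adjusted p = 0.865 and 1 (limma). JQ1 and iBD2 were used in different experiments and the labels used here state no doses, so their values stand side by side and the difference was not tested.

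SKF alone gave no called difference in Npy1r. At 60 min in experiment 2 it measured 15.4 and 15.3 FPKM in SKF libraries, against 14.1 and 13.8 FPKM in DMSO libraries. The libraries did not overlap, yet the log2 difference of 0.18 ± 0.09 did not pass the test (adjusted p = 0.465, limma). At 24 h the log2 difference was -0.07 ± 0.09 (adjusted p = 0.892, limma).

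Sstr2 encodes the somatostatin receptor that is the target of most clinical somatostatin analogues, and it showed the largest SKF response of the 7 genes tested at 60 min. The gene lies on the plus strand of chromosome 10 at 102136283 to 102143434 (Rnor_6.0). Sstr2 measured 3.70 and 3.65 FPKM in SKF libraries of experiment 2, against 1.77 and 1.48 FPKM in DMSO libraries. The groups stood well apart, with the SKF mean at 226.4% of the DMSO mean. Sstr2 rose by 1.01 ± 0.10 on the log2 scale (adjusted p = 2.45e-06, limma, n = 2 libraries a group). Experiment 1 had 3.49 and 3.27 FPKM with SKF, against 1.66 and 1.64 FPKM with DMSO, a log2 difference of 0.87 ± 0.10.

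Mc4r, on the minus strand of chromosome 18 at 62612838 to 62614725 (Rnor_6.0), encodes the receptor for alpha-melanocyte stimulating hormone. It measured 2.65 and 2.46 FPKM in SKF libraries of experiment 2, against 1.34 and 1.24 FPKM in DMSO libraries. The SKF libraries again lay above all DMSO libraries, and Mc4r rose by 0.81 ± 0.10 on the log2 scale (adjusted p = 4.94e-05, limma). In experiment 1 it measured 4.24 and 3.24 FPKM with SKF, against 2.52 and 2.67 FPKM with DMSO, a log2 difference of 0.47 ± 0.10.

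Sstr2 and Mc4r were thus 2 of the 7 receptors tested that rose with SKF in experiment 2, where 2.06% of the 13999 genes tested rose and 0.300% fell. The median log2 difference was 0.06 over the 7 receptors and 0.01 over all genes. The other 5 did not pass the test. Oprl1 came nearest, at 6.59 and 6.93 FPKM in SKF libraries, against 8.13 and 9.09 FPKM in DMSO libraries (log2 difference -0.28 ± 0.10, adjusted p = 0.222, limma). In FPKM as deposited in experiment 1, 3 of the 7 receptors (Sstr2, Mc4r and Oprm1) had both SKF libraries above both DMSO libraries, as did 9.49% of all genes. Both SKF libraries lay below for 2 receptors (Oprk1 and Oprl1, each narrowly), as for 17.1% of all genes. After scaling per library the groups of Oprk1 and of Oprl1 overlapped.

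The RefSeq promoter windows of the members (build GRCr8, 250 bases before to 50 after the annotated start) were read for the CRE, because Sstr2 and Mc4r moved together with SKF. A window was at hand for 7 of the 9 genes. In the sequences below, capitals mark the CRE half-site TGACG on either strand, and a pair of half-sites that overlap forms the full CRE, TGACGTCA. Sstr2 is at chr10:99163103-99163402 on the plus strand, Mc4r at chr18:62691636-62691935 and Npy1r at chr16:27813338-27813637, both on the minus strand.
Sstr2: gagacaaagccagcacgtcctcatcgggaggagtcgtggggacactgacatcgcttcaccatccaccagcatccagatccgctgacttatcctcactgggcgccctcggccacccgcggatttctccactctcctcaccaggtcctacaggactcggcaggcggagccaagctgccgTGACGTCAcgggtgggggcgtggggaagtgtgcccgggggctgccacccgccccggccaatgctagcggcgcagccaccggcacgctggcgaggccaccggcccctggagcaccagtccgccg
Mc4r: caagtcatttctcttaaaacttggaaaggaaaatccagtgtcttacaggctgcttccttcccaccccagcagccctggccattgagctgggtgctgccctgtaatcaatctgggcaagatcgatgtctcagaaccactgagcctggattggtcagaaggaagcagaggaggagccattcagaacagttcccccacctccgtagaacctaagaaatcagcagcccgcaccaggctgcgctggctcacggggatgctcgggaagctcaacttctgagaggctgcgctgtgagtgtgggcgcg
Npy1r: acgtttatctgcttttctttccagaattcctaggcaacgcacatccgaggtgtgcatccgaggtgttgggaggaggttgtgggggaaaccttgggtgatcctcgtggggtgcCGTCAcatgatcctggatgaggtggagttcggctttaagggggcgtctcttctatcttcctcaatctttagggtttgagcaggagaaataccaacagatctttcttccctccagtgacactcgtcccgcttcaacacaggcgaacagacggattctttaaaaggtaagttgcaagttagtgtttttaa
The Sstr2 window holds a full CRE that begins 73 bases before the start, and 1.83% of 33469 windows in the table hold one. The Sstr2 window is 68.7% G and C, against a median of 51.7% over all windows. The share of 1.83% is therefore not a rate for windows of like composition. None of the windows of the other 6 members holds a full CRE. Npy1r and Sstr1 hold 1 half-site each, at 138 and 15 bases before the start, and 21.2% of all windows hold at least 1. The Mc4r window holds neither, nor the AP-1 motif TGANTCA, which 7.33% of all windows hold on either strand. A match is a description of these letters and says nothing of binding.

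The SKF response of Sstr2 and Mc4r was then compared with and without an inhibitor. In experiment 2 Sstr2 measured 3.65 FPKM in the SKF plus iBD2 library, against 1.67 and 1.86 FPKM in iBD2 libraries. Mc4r measured 2.38 FPKM in the SKF plus iBD2 library, against 1.34 and 1.21 FPKM in iBD2 libraries. Both genes therefore stood higher with SKF in the presence of iBD2 too, by 0.87 ± 0.12 for Sstr2 and 0.69 ± 0.12 for Mc4r on the log2 scale. The SKF effect with iBD2 minus that without it was -0.14 for Sstr2 (95% interval -0.46 to 0.18) and -0.11 for Mc4r (95% interval -0.44 to 0.22), and neither difference passed the test (adjusted p = 1 for both, limma). Because SKF plus iBD2 had a lone library, its spread was taken from the remaining groups.

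With JQ1 in experiment 1, Sstr2 measured 1.27 and 1.49 FPKM in SKF plus JQ1 libraries, against 1.29 and 1.10 FPKM in JQ1 libraries. Mc4r measured 1.65 and 1.77 FPKM in SKF plus JQ1 libraries, against 1.57 and 1.44 FPKM in JQ1 libraries. For Sstr2 the groups overlapped and for Mc4r they lay close together, with log2 differences of 0.16 ± 0.10 and 0.14 ± 0.10. SKF plus JQ1 libraries averaged 40.8% of the SKF mean for Sstr2 and 45.7% for Mc4r. JQ1 alone was lower as well, with Sstr2 at 72.2% and Mc4r at 57.9% of the DMSO mean. The SKF effect with JQ1 minus that without it was -0.72 ± 0.14 for Sstr2 and -0.32 ± 0.14 for Mc4r, given as a description.

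**Figure D2:**
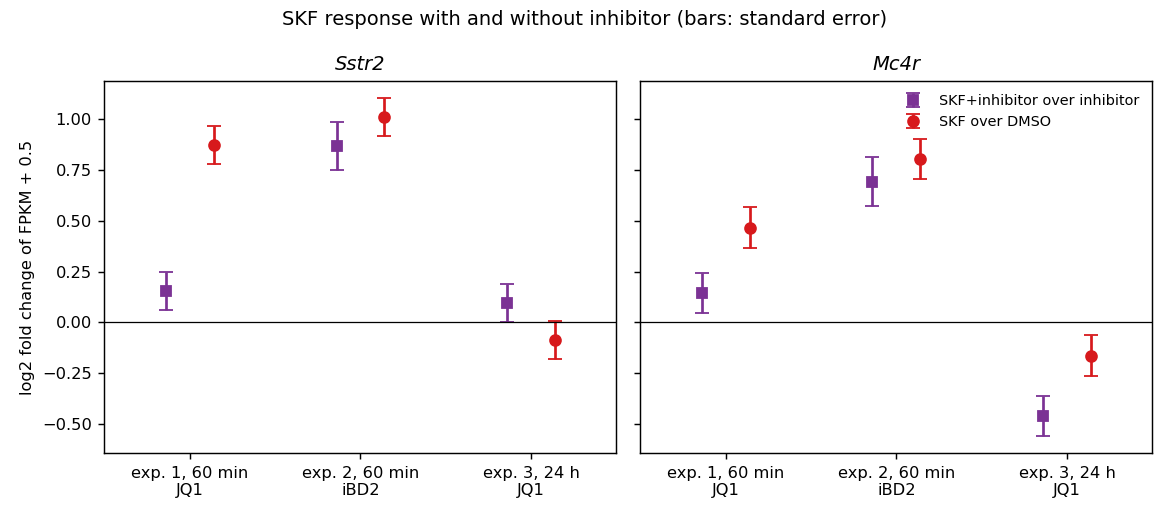
Log2 fold change of FPKM + 0.5 with SKF (y axis, with standard errors) for Sstr2 and Mc4r in the 3 experiments (x axis), with the inhibitor present (squares) and absent (circles). The values with JQ1 at 60 min are 0.16 and 0.14, those with iBD2 0.87 and 0.69.

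At 24 h neither gene was higher with SKF. Sstr2 measured 1.25 and 1.41 FPKM in SKF libraries, against 1.42 and 1.49 FPKM in DMSO libraries. Mc4r measured 2.31 and 2.27 FPKM in SKF libraries, against 2.55 and 2.74 FPKM in DMSO libraries. In FPKM as deposited the SKF libraries lay just below the DMSO libraries, but for Sstr2 the groups overlapped once scaled per library. The log2 differences were -0.09 ± 0.10 and -0.16 ± 0.10 (adjusted p = 0.866 and 0.667, limma). None of the 7 receptors passed the test with SKF at 24 h, where 1.49% of all genes did. By limma, 1 receptor (Sstr1, log2 difference -0.28 ± 0.12) had an unadjusted p under 0.05, as did 9.75% of all genes, and limma voom on estimated reads also called 0. The SKF effect at 24 h minus that at 60 min in experiment 2 was -1.10 ± 0.14 for Sstr2 and -0.97 ± 0.14 for Mc4r (adjusted p = 0.000112 and 0.000703, limma). These were 2 of 7 receptors with a lower SKF effect at 24 h, where 1.69% of all genes had one, and time cannot be told apart from experiment here.

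JQ1 for 24 h brought all 7 receptors tested below their controls, both without and with SKF. With JQ1 over DMSO 7 of 7 fell, where 27.7% of all genes fell and 29.1% rose. With SKF plus JQ1 over SKF 7 of 7 fell, where 28.0% of all genes fell and 28.8% rose. The count without Oprk1 is 6 of 6 in each. The median log2 difference of the 7 was -0.79 with JQ1 over DMSO, against 0.02 over all genes, and -0.78 with SKF plus JQ1 over SKF, against 0.01 over all genes. Because genes enter the test through the groups where they are high, these counts cover the receptors that passed the filter and not all 9. In these bulk libraries fewer cells of a type and less RNA per cell cannot be told apart.

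Oprl1, the receptor for nociceptin, had the largest log2 fall on the scale with 0.5 FPKM added, but not on every scale, as the values of Oprk1 show. It measured 2.996 and 2.94 FPKM in JQ1 libraries, against 10.4 and 10.6 FPKM in DMSO libraries. It measured 2.23 and 2.75 FPKM in SKF plus JQ1 libraries, against 9.05 and 10.02 FPKM in SKF libraries. The libraries did not overlap, and Oprl1 fell to 28.3% of the DMSO mean and 26.2% of the SKF mean. The log2 fold changes were -1.57 ± 0.10 and -1.68 ± 0.10 (adjusted p = 1.98e-09 and 8.62e-10, limma). At 60 min in experiment 1 Oprl1 measured 7.33 and 8.81 FPKM in JQ1 libraries, against 8.72 and 9.08 FPKM in DMSO libraries, so the groups overlapped (log2 difference -0.11 ± 0.10). The 24 h value minus the 60 min value was -1.46 ± 0.14, given as a description across experiments.

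Oprk1, the receptor for dynorphin, was low throughout. At 24 h it measured 0.064 and 0.111 FPKM in JQ1 libraries, against 0.620 and 0.546 FPKM in DMSO libraries. It measured 0.073 and 0.079 FPKM in SKF plus JQ1 libraries, against 0.536 and 0.464 FPKM in SKF libraries. The JQ1 means were thus 14.9% of DMSO and 15.2% of SKF, the smallest shares among the 7 receptors tested. The log2 fold changes were -0.85 ± 0.11 and -0.78 ± 0.11. Oprk1 entered the test through 4 libraries, of which 3 were 24 h controls, where it was high, so no p from that fit is given. With no filter on low values, which takes in every gene, the adjusted p was 1.51e-05 and 3.07e-05 (limma). A scale with 0.5 FPKM added understates the change of a gene this low, and with 0.1 FPKM added the values were -1.81 and -1.72, beside -1.68 and -1.82 for Oprl1. With limma voom on estimated reads they were -2.59 and -2.58, beside -1.68 and -1.78 for Oprl1. They rest on 11 to 25 estimated reads in each library with JQ1. At 60 min Oprk1 was at 80.5% of the DMSO mean with JQ1 in experiment 1 and its log2 difference was -0.14 ± 0.11.

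Oprm1, the mu opioid receptor bound by enkephalins and morphine, had the highest summed FPKM of the members, through 1 long transcript whose span contains Ipcef1. It measured 12.1 and 11.97 FPKM in JQ1 libraries at 24 h, against 19.0 and 19.7 FPKM in DMSO libraries. It measured 14.7 and 12.1 FPKM in SKF plus JQ1 libraries, against 19.5 and 20.3 FPKM in SKF libraries. JQ1 libraries again lay below all controls, and Oprm1 fell by 0.56 and 0.48 on the log2 scale (SE 0.07 each, adjusted p = 2.85e-06 and 1.22e-05, limma). On that scale Mc4r and Sstr1 fell by like amounts with JQ1 over DMSO, and Sstr1 fell less with SKF plus JQ1 over SKF. At 60 min in experiment 1 Oprm1 was at 79.1% of the DMSO mean with JQ1 and at 70.3% of the SKF mean with SKF plus JQ1. With iBD2 it was at 96.2% of the DMSO mean.

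Of 20 annotated Oprm1 transcripts, 1 long transcript of 5 exons held 87.2% of the FPKM on average and 75.8 to 93.7% in single libraries. Its span, on the plus strand of chromosome 1 at 43475597 to 43700633 (Rnor_6.0), contains Ipcef1, which lies on the other strand at 43567842 to 43638161. The long transcript measured 9.21 and 9.62 FPKM in JQ1 libraries at 24 h, against 16.8 and 18.0 FPKM in DMSO libraries. The other Oprm1 transcripts summed to 2.93 and 2.35 FPKM in JQ1 libraries, against 2.17 and 1.73 FPKM in DMSO libraries. The lower Oprm1 level with JQ1 at 24 h was therefore seen in the long transcript and not in the sum of the others. Ipcef1 fell by 1.72 ± 0.09 on the log2 scale with JQ1 at 24 h (adjusted p = 1.98e-10, limma), and its log2 difference with JQ1 at 60 min was -0.10 ± 0.09. The labels call the libraries stranded, but no source used here says whether reads were counted by strand. Values of Oprm1, Ipcef1 and AABR07001432.1 are therefore uncertain where exons of opposite strands share bases. The part of Ipcef1 and of AABR07001432.1 in the Oprm1 values was not tested.

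**Figure D3:**
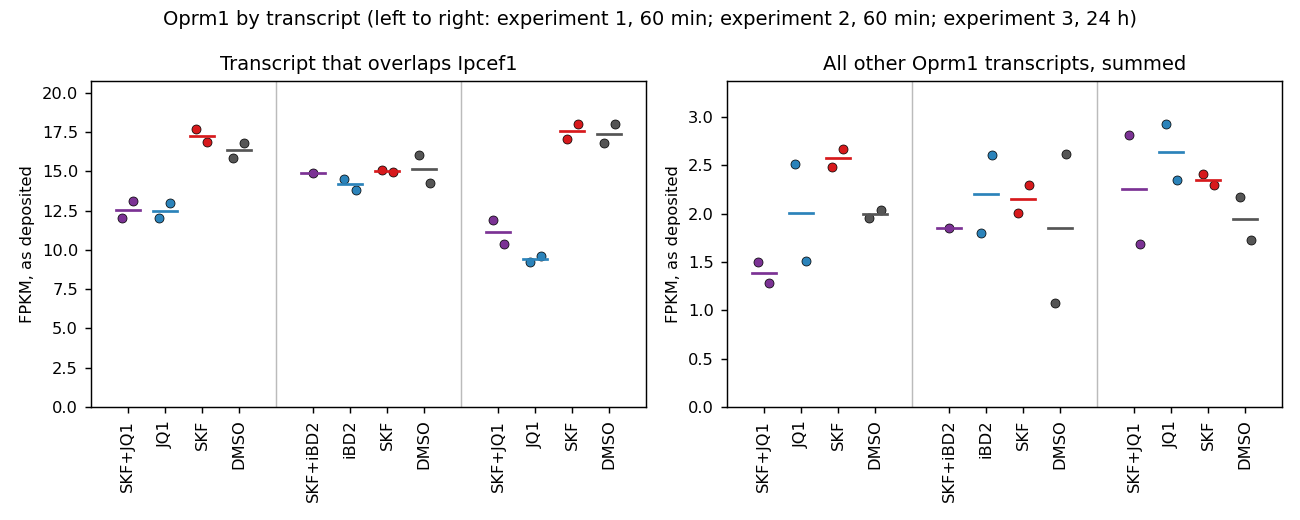
Deposited FPKM of the long Oprm1 transcript that spans Ipcef1 (left panel) and of all other Oprm1 transcripts summed (right panel), per library (points) with group means (lines), by experiment and treatment on the x axis. The long transcript is at 9.21 to 11.9 FPKM in the 24 h libraries with JQ1, below all 24 h libraries without it.

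Among the somatostatin receptors, Sstr2 measured 0.612 and 0.556 FPKM in JQ1 libraries at 24 h, against 1.42 and 1.49 FPKM in DMSO libraries. It measured 0.642 and 0.688 FPKM in SKF plus JQ1 libraries, against 1.25 and 1.41 FPKM in SKF libraries. Sstr2 fell to 40.2% of the DMSO mean and 49.9% of the SKF mean (log2 fold changes -0.79 ± 0.10 and -0.60 ± 0.10, adjusted p = 2.85e-06 and 4.46e-05, limma). These JQ1 levels were the lowest of Sstr2 in the 23 libraries.

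Sstr1, a related somatostatin receptor on chromosome 6, measured 0.271 and 0.312 FPKM in JQ1 libraries at 24 h, against 0.766 and 0.686 FPKM in DMSO libraries. It measured 0.331 and 0.232 FPKM in SKF plus JQ1 libraries, against 0.582 and 0.430 FPKM in SKF libraries. Sstr1 fell by 0.58 ± 0.12 with JQ1 over DMSO and by 0.33 ± 0.12 with SKF plus JQ1 over SKF (adjusted p = 0.00078 and 0.0322, limma), to 40.2% of the DMSO mean and 55.7% of the SKF mean. With 0.1 FPKM added the log2 values were -0.99 and -0.61, and with limma voom they were -1.18 and -0.74. The second call rested on single libraries. Without SKF replicate 5 the log2 difference was -0.22 (adjusted p = 0.242, limma), and without SKF plus JQ1 replicate 6 it was -0.24 (adjusted p = 0.202, limma). With no filter on low values it had an adjusted p of 0.0673 (limma). Sstr3, under the filter, was listed at 0.020 and 0.030 FPKM in JQ1 libraries at 24 h, against 0.071 and 0.123 FPKM in DMSO libraries, on 5 to 70 estimated reads. When no filter was applied, its log2 difference was -0.18 ± 0.05 with JQ1 over DMSO and -0.31 ± 0.05 with SKF plus JQ1 over SKF (adjusted p = 0.025 and 0.000697, limma).

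Mc4r measured 1.62 and 1.40 FPKM in JQ1 libraries at 24 h, against 2.55 and 2.74 FPKM in DMSO libraries. It measured 1.03 and 0.917 FPKM in SKF plus JQ1 libraries, against 2.31 and 2.27 FPKM in SKF libraries. Mc4r fell to 57.0% of the DMSO mean and 42.5% of the SKF mean (log2 fold changes -0.57 ± 0.10 and -0.87 ± 0.10, adjusted p = 0.000129 and 1.46e-06, limma). The SKF plus JQ1 libraries were also below the JQ1 libraries. The SKF effect with JQ1 minus that without it was -0.30 for Mc4r (95% interval -0.60 to -0.004), which did not pass the test (adjusted p = 0.866, limma). By limma, 0 of the 7 receptors passed that test, where 0.0429% of all genes did. The 1 receptor with an unadjusted p under 0.05 was Mc4r, beside 5.72% of all genes. Limma voom also called 0 receptors.

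**Figure D4:**
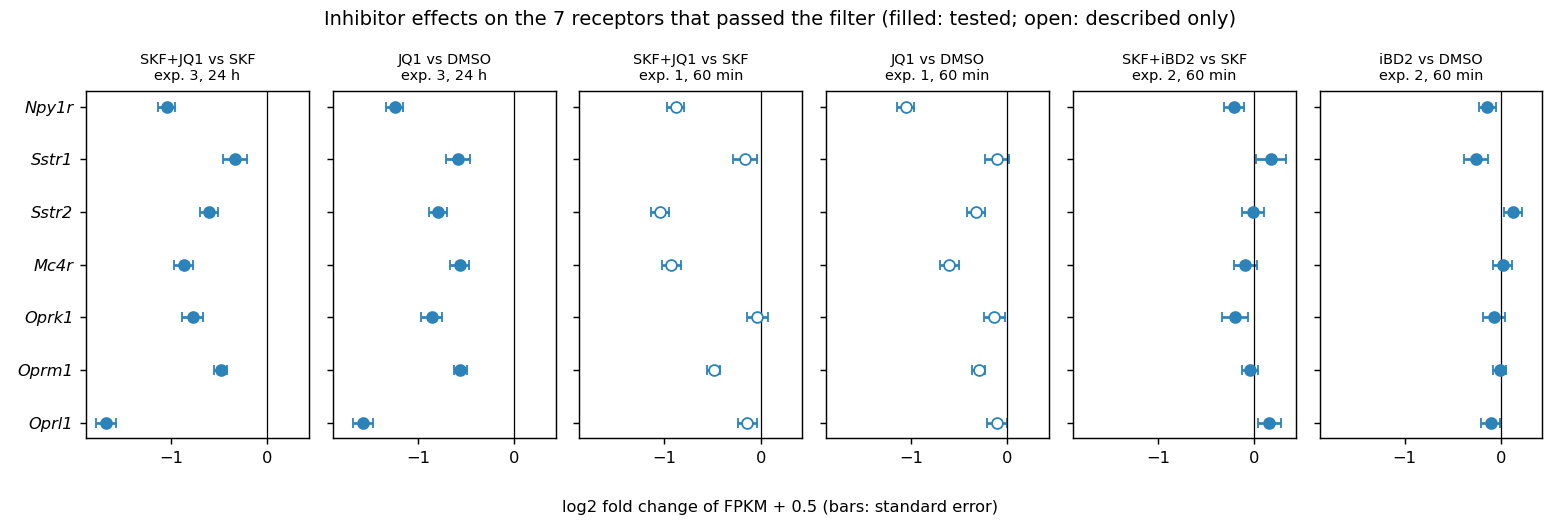
Log2 fold change of FPKM + 0.5 (x axis, with standard errors) for the 7 receptors that passed the filter (y axis), in a panel per comparison of an inhibitor with its control. The 2 panels at 24 h lie left of 0 for all 7 receptors, with Oprl1 at -1.68 and -1.57, whereas the 2 iBD2 panels lie between -0.25 and 0.18.

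At 60 min of JQ1, 5 of the 7 receptors had both JQ1 libraries below both DMSO libraries (Npy1r, Sstr2, Mc4r, Oprk1 and Oprm1), as did 26.2% of all genes. With SKF present the 5 were Npy1r, Sstr2, Mc4r, Oprm1 and Oprl1, beside 22.5% of all genes. Npy1r had the largest log2 difference without SKF, and Sstr2 the largest with it, at -1.05 ± 0.10. These are the contrasts that led to the choice of the genes, and nothing is read from the counts.

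iBD2 gave no called difference in any receptor. By limma 0 of 7 passed the test with iBD2 over DMSO, where 0.186% of all genes did, all of them higher. With SKF plus iBD2 over SKF 0 of 7 passed, where 0.0214% of all genes did. No receptor had an unadjusted p under 0.05 in either comparison, where 6.53% and 4.99% of all genes did, and limma voom called 0 in both. The log2 differences of Sstr2 and Mc4r with iBD2 over DMSO were 0.13 (95% interval -0.07 to 0.33) and 0.02 (95% interval -0.19 to 0.23). The interval of Sstr1 was wider, at -0.52 to 0.01 around -0.25. In the SKF effect with iBD2 minus that without it, 0 of 7 passed by limma, where 0.0143% of all genes did, and 1 receptor (Sstr1, 0.43 ± 0.20) had an unadjusted p under 0.05, as did 3.92% of all genes.

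The remaining neuropeptide receptors moved with JQ1 at 24 h as well. Of 49 listed receptor genes 45 were in the tables and 20 passed the filter. Of these 20, 18 fell and 0 rose with JQ1 over DMSO (median log2 difference -0.93), where 27.7% of all genes fell. With SKF plus JQ1 over SKF 19 fell and 0 rose (median -0.83), where 28.0% of all genes fell. Nmbr, Npffr1 and Rxfp3 had medians of 0.492, 0.483 and 0.381 FPKM over the libraries, below the filter level of 0.5 FPKM. They entered the test through the libraries where they were high, so these counts cover the receptors that passed the filter. Gpr83 averaged 0.427 FPKM with JQ1, against 4.35 FPKM with DMSO, and fell by 2.32 ± 0.09 (adjusted p = 7.21e-12, limma). Prokr2, a prokineticin receptor, averaged 3.62 FPKM with JQ1, against 11.2 FPKM with DMSO. Sstr4, another somatostatin receptor, averaged 2.33 FPKM with JQ1, against 5.86 FPKM with DMSO. Adcyap1r1, the receptor for the peptide PACAP, averaged 21.5 FPKM with JQ1, against 36.9 FPKM with DMSO. All 3 fell, by 1.41 ± 0.10, 1.08 ± 0.08 and 0.66 ± 0.04 on the log2 scale (adjusted p = 7.61e-09, 1.06e-08 and 2.56e-09, limma). None of the 20 was called with SKF or with iBD2 in experiment 2 by limma, and Tacr1, the substance P receptor, was the 1 that fell with SKF at 24 h (log2 fold change -0.53 ± 0.13, adjusted p = 0.0444, limma).

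Of 10 genes of the peptide ligands 5 passed the filter. At 24 h 1 fell and 0 rose with JQ1 over DMSO (median log2 difference 0.02, against 0.02 over all genes), where 27.7% of all genes fell and 29.1% rose. With SKF plus JQ1 over SKF 2 fell and 1 rose (median -0.35, against 0.01 over all genes), where 28.0% of all genes fell and 28.8% rose. The gene that fell in both was Pdyn, which encodes the dynorphin precursor, the ligand of the kappa receptor. It averaged 5.08 FPKM with JQ1, against 11.2 FPKM with DMSO (log2 fold change -0.96 ± 0.08, adjusted p = 3.07e-08, limma). Pnoc, the nociceptin precursor, was higher with SKF at 24 h, at 10.2 FPKM with SKF and 7.60 FPKM with DMSO (log2 fold change 0.41 ± 0.09, adjusted p = 0.0248, limma). It fell with SKF plus JQ1 over SKF by 0.36 ± 0.09 (adjusted p = 0.00243, limma). Sst, the somatostatin precursor, was among the abundant transcripts, at 184.2 to 269.7 FPKM over the 23 libraries. It rose with SKF plus JQ1 over SKF by 0.17 ± 0.05 (adjusted p = 0.00912, limma).

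Genes that act downstream of the receptors had calls in both directions, as all genes did, with 29.1% higher and 27.7% lower. Of 24 G protein and effector genes tested, 5 rose and 8 fell with JQ1 over DMSO at 24 h (median -0.03), and 5 rose and 11 fell with SKF plus JQ1 over SKF (median -0.17). Gnai1, an inhibitory alpha subunit, averaged 51.4 FPKM with JQ1 and 38.0 FPKM with DMSO, whereas Gng7, a gamma subunit abundant in striatal projection neurons, averaged 78.5 FPKM with JQ1 and 125.2 FPKM with DMSO. The log2 fold changes were 0.54 ± 0.05 and -0.56 ± 0.10 (adjusted p = 7.71e-08 and 0.000159, limma). Of 8 genes of receptor desensitisation and trafficking, 1 rose and 4 fell with JQ1 over DMSO (median -0.15), and 2 rose and 4 fell with SKF plus JQ1 over SKF (median -0.09). Grk5, a kinase that phosphorylates active receptors, rose by 1.20 ± 0.09, and Arrb1, an arrestin, fell by 0.52 ± 0.05 (adjusted p = 5.74e-09 and 2.1e-07, limma). Mrap2, an accessory protein of the melanocortin 4 receptor, fell by 0.56 ± 0.12 (adjusted p = 0.000653, limma).

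Markers of the cell types in these cultures moved with JQ1 at 24 h beside the receptors, some down and some up. Over all genes, 27.7% fell and 29.1% rose with JQ1 over DMSO, and 28.0% fell and 28.8% rose with SKF plus JQ1 over SKF. All 7 microglia markers fell with JQ1. Of these, Tmem119, at 0.015 to 0.578 FPKM over the libraries, entered the test through the libraries where it was high. Summed microglia marker FPKM was 6.4 to 9.5 with JQ1, against 42.8 to 56.0 with DMSO. It was 0.8 to 1.6 with SKF plus JQ1, against 19.5 to 26.4 with SKF. With SKF over DMSO at 24 h, 5 of the 7 microglia markers fell, where 0.850% of all genes fell. Summed projection neuron markers were at 638.3 to 699.7 FPKM with JQ1, against 656.4 to 723.3 FPKM with DMSO, and GABA neuron markers at 791.9 to 835.7 FPKM with JQ1, against 810.3 to 846.3 FPKM with DMSO, so both ranges overlapped. With SKF present they did not overlap. Projection neuron markers were at 583.9 to 674.9 FPKM with SKF plus JQ1, against 697.8 to 726.4 FPKM with SKF, and GABA neuron markers at 772.7 to 832.6 FPKM with SKF plus JQ1, against 853.9 to 881.1 FPKM with SKF. Summed interneuron markers were at 365.1 to 394.4 FPKM with JQ1, against 425.1 to 435.8 FPKM with DMSO, and at 418.1 to 430.6 FPKM with SKF plus JQ1, against 417.3 to 434.1 FPKM with SKF. By gene, 4 of 8 interneuron markers tested fell and 0 rose with JQ1 over DMSO, and 3 fell and 1 rose with SKF plus JQ1 over SKF. Calb2 averaged 3.63 FPKM with JQ1, against 12.5 FPKM with DMSO. Summed astrocyte markers were at 273.9 to 328.2 FPKM with JQ1, against 336.3 to 426.8 FPKM with DMSO, and at 308.7 to 424.7 FPKM with SKF plus JQ1, against 323.8 to 346.2 FPKM with SKF. By gene, 2 of 6 astrocyte markers fell and 0 rose with JQ1 over DMSO, and 1 fell and 2 rose with SKF plus JQ1 over SKF. Aqp4 averaged 13.3 FPKM with JQ1, against 56.3 FPKM with DMSO. Of 5 oligodendrocyte lineage markers tested, 2 rose and 2 fell with JQ1 over DMSO, and 2 rose and 0 fell with SKF plus JQ1 over SKF. Their summed FPKM was 40.7 to 50.5 with JQ1, against 36.7 to 44.3 with DMSO. With SKF plus JQ1 it was 45.8 to 58.7, against 36.0 to 37.3 with SKF. Of 5 excitatory neuron markers, 2 rose and 1 fell in each of the 2 comparisons. Of the 12 projection neuron markers 2 rose and 3 fell with JQ1 over DMSO (median log2 difference -0.07), and 3 rose and 5 fell with SKF plus JQ1 over SKF (median -0.27). Meis2 rose by 0.36 ± 0.05 with JQ1 over DMSO (adjusted p = 1.92e-05, limma). The 3 that fell were Drd1, Adora2a and Rgs9, so the fall was not particular to Drd1. Drd1, which marks D1 projection neurons, averaged 5.86 FPKM with JQ1, against 13.7 FPKM with DMSO (log2 fold change -1.06 ± 0.10, adjusted p = 8.86e-08, limma). Adora2a averaged 27.2 FPKM with JQ1, against 57.7 FPKM with DMSO (log2 fold change -0.97 ± 0.11, adjusted p = 2.18e-06, limma). Rgs9 fell by 0.54 ± 0.12 (adjusted p = 0.00128, limma). The part of cell numbers in the receptor results was not tested.

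Across the 23 libraries, after subtraction of the DMSO mean of the same experiment, Mc4r and Sstr2 had a Pearson r of 0.94, Oprk1 and Oprl1 one of 0.96, and Npy1r and Oprm1 one of 0.95. The lowest r between 2 of the 7 receptors was 0.58, for Mc4r and Sstr1. The points share treatments, libraries and depth, so these values describe the libraries and have no test. Of 12780 candidate genes, Prag1 (r = 0.98), Slitrk5 (0.97) and Has2 (0.97) had the pattern most like that of Npy1r. Jade2 (r = 0.96), Pde4d (0.95) and Dhx38 (0.95) had the pattern most like that of Sstr2.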

How the data were processed

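RNA of rat primary striatal neurons was sequenced from ribosomal RNA-depleted stranded libraries, per the labels. The submitters' processing notes name, for the authors' work, the tools DESeq2, FastQC, STAR, StringTie and Trim Galore and the genome build Rnor_6.0, without versions. Each deposited table holds 41078 transcripts with the FPKM and the coverage computed by the authors. No per-sample count was used. Of 24 samples 23 were used, since SKF plus iBD2 replicate 2 was not analysed here.

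FPKM were summed over the transcripts of a gene, scaled per library by a median-ratio factor and taken as log2(FPKM + 0.5). Levels in the text are FPKM as deposited. Reads and aligned bases were estimated from coverage and length, with a read length of 101 bases. The 13999 genes tested reached 0.5 FPKM in 2 or more libraries and had a transcript of 200 nucleotides or more. A model with 1 mean for each of the 12 groups was fitted to the 23 libraries with limma (version 3.58.1, R version 4.3.3) using its robust and trend options. It left 11 residual degrees of freedom (two-sided tests, Benjamini-Hochberg adjustment over all genes tested, threshold 0.05) and was tested on simulated data. The errors given are standard errors of that model. Comparisons that use experiment 1 were not tested, because its values led to the choice of the genes.

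The members, gene lists and comparisons were chosen with earlier results of these data known. Named genes are the members, up to 4 called genes of each list by smallest p, the 3 genes most like Npy1r and Sstr2, and Fos, Nr4a1, Hexim1, Myc and Drd1. Ipcef1 and AABR07001432.1 were added for their overlap with Oprm1. Promoter sequences are from RefSeq (build GRCr8), and the coordinates of genes are those of the files. Alternatives were FPKM as deposited, 0.1 or 1 FPKM added, no filter on low values, limma voom on estimated reads, a fit of each experiment alone, a replicate block, and each library left out in turn.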

Additional observations from a re-analysis of the deposited data

Results flagged for a closer look

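The SKF effect of Sstr2 and of Mc4r differed between times by a test of the difference itself. At 24 h in experiment 3 minus 60 min in experiment 2 it was -1.10 for Sstr2 and -0.97 for Mc4r on the log2 scale, and time and experiment cannot be told apart. Set against experiment 1 at 60 min, the same genes moved in opposite directions in all libraries in FPKM as deposited. This difference was not tested. There the SKF effect at 60 min exceeded that at 24 h by 1.16 for Sstr2 and 0.73 for Mc4r, taken as log2 ratios of mean FPKM with nothing added. On the scale with 0.5 FPKM added, the effects were 0.87 at 60 min and -0.09 at 24 h for Sstr2 and 0.47 and -0.16 for Mc4r. After scaling by the median-ratio factor, the Sstr2 groups at 24 h overlapped, at 1.24 and 1.39 with SKF against 1.36 and 1.49 with DMSO. In FPKM as deposited, Oprm1 in experiment 1 lay above DMSO in both SKF libraries and below JQ1 in both SKF plus JQ1 libraries. The difference was 0.17 in log2 ratios of mean FPKM and was not tested. After scaling, the Oprm1 groups with JQ1 overlapped, at 13.6 and 14.65 with SKF plus JQ1 against 14.62 and 14.69 with JQ1. The log2 difference of that pair was -0.05 ± 0.07.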

How the results depend on the processing

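Among the 7 receptors that passed the filter, the counts called were the same under every alternative run, except that SKF plus JQ1 over SKF at 24 h gave 6 to 7 (Sstr1 was the receptor lost). With no filter on low values Npy5r and Sstr3 were tested too, and both passed with JQ1 over DMSO at 24 h (adjusted p = 0.0241 and 0.025, limma). Of these, Sstr3 passed with SKF plus JQ1 over SKF (adjusted p = 0.000697, limma) and Npy5r did not (adjusted p = 0.465, limma). Counts over all genes moved more. With FPKM as deposited, iBD2 over DMSO called 9 genes and the SKF effect with iBD2 minus that without it called 1. With no filter on low values these called 14 and 185, SKF plus iBD2 over SKF called 229, and the SKF effect with JQ1 minus that without it at 24 h called 45. Limma voom called 4 for iBD2 over DMSO. With each experiment fitted alone the counts were 7 for SKF plus iBD2 over SKF, 86 for SKF over DMSO at 24 h and 1 for the SKF effect with JQ1 minus that without it. With each library left out in turn, the count was 205 to 362 for SKF over DMSO in experiment 2, 5 to 27 for iBD2 over DMSO, 3 to 6 for SKF plus iBD2 over SKF and 1 to 4 for the SKF effect with iBD2 minus that without it. It was 64 to 227 for SKF over DMSO at 24 h, 3 to 8 for the SKF effect with JQ1 minus that without it, and 171 to 332 for the SKF effect at 24 h minus that at 60 min. The cause was not tested.

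Signs turned only in receptor differences that were not called. With FPKM as deposited they were -0.011 for Mc4r with iBD2 over DMSO, 0.021 for Oprm1 in the SKF effect with iBD2 minus that without it and 0.027 for Oprm1 in the SKF effect at 24 h minus that at 60 min. With a library left out they spanned, for Oprk1, -0.15 to 0.10 (SKF over DMSO, experiment 2), -0.25 to 0.002 (SKF effect with iBD2 minus without) and -0.21 to 0.037 (SKF effect at 24 h minus 60 min). For Oprm1 they spanned -0.025 to 0.005 (iBD2 over DMSO), -0.008 to 0.10 (SKF over DMSO at 24 h), -0.047 to 0.19 (SKF effect with JQ1 minus without) and -0.068 to 0.045 (SKF effect at 24 h minus 60 min). The ranges were -0.025 to 0.068 for Mc4r with iBD2 over DMSO, -0.026 to 0.006 for Sstr2 with SKF plus iBD2 over SKF, and -0.25 to 0.032 for Oprl1 in the SKF effect with JQ1 minus without.

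Whether same-numbered libraries share a culture or a batch is not stated in the labels. Their deviations from the group means correlated at -0.27 to 0.37, and with 2 libraries a group these values cannot settle it. With a replicate block the counts were 339 for SKF over DMSO in experiment 2, 25 for iBD2 over DMSO, 219 for SKF over DMSO at 24 h, 8111 for JQ1 over DMSO and 8098 for SKF plus JQ1 over SKF, and no receptor call changed. A block with crossed DMSO numbers, chosen after seeing the data, gave 323 for SKF over DMSO in experiment 2 and 185 at 24 h. Values of the low genes Sstr1, Sstr2 and Oprk1 at 24 h depend on the amount added to the FPKM. For Oprk1 with JQ1 over DMSO the log2 value was -1.81 with 0.1 FPKM added, -0.52 with 1 FPKM added and -2.59 with limma voom.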
